A study of Danio rerio with 2 samples.

Results

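The 8 transcripts described here encode components of the mTOR branch of PI3K-Akt signaling and of the cap-dependent translation machinery that this branch controls. They were taken by symbol (rheb, fkbp1aa, rps6kb1b, eif4ebp1, eif4ea, eif4e1b, eif4bb and pabpc1b) and make up 8 of the 89 genes on the array, of which 84 are pathway genes and 5 are reference genes. NOD1-deficient zebrafish larvae, homozygous for the NOD1-1IS allele (a 1 bp insertion in nod1 made with the Cas9/gRNA system), were compared with wild-type (WT) AB/TU larvae that carry no such allele. RNA came from whole larvae at 10 days post fertilization (dpf), in pools of 200 to 250 larvae, and each genotype had 3 biological replicates run on 1 array each. The mutant group rests on 1 insertion allele. The gene nod1 itself is not on the array, so the genotype of a pool could not be checked from these values. In the paper's hatching and survival assays the genotypes came from separate parents, and the parents of these pools are not stated. If those were separate too, clutch or background cannot be told apart from the allele. The paper also reports later hatching and more larval death in the mutants, whose part in these values was not tested.

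NOD1 is an intracellular receptor that senses fragments of bacterial peptidoglycan. The mTOR kinase works in a complex, mTORC1, that is switched on by the small GTPase Rheb when growth factors act through PI3K and Akt. Active mTORC1 phosphorylates the kinase S6K1 and the repressor 4E-BP1, which then lets go of the cap-binding protein eIF4E. Free eIF4E joins a scaffold and a helicase at the 5′ cap of the mRNA, and poly(A)-binding protein links the other end of the message to the same complex. Much of this control is phosphorylation of the proteins, and the array measured only the abundance of the transcripts.

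Each well gave a Ct, the number of PCR cycles needed before the product signal reached a set brightness. Delta Ct subtracts from it the average Ct that hprt1, nono and rpl13a, the reference genes, had on that array, so a lower delta Ct is a higher level. A log2 change is the WT mean delta Ct minus the NOD1-deficient mean, and a positive one is higher in NOD1-deficient larvae. All members gave a Ct on all 6 arrays, with raw Ct between 17.8 and 30.05. The mean raw Ct of the 3 reference genes was 19.5 ± 0.107 in NOD1-deficient larvae and 19.8 ± 0.144 in WT larvae (SD, n = 3 each), so the scaling itself moved each log2 change by 0.30 (two-sided exact permutation p = 0.1).

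Scaled to hprt1, nono and rpl13a, none of the 8 transcripts passed an adjusted p of 0.05 in limma between NOD1-deficient and WT larvae, with 1 passing at an unadjusted p of 0.05. Of the 84 pathway genes, 19.0% passed after adjustment (3 higher and 13 lower) and 31.0% passed without adjustment. Both the calls and the directions turned with the reference genes. With all 5 reference genes, 7 members were above 0 and 2 were called higher, while 16 pathway genes were called higher and 6 lower around a median of 0.17. Centring each array on its median pathway Ct gave 7 members above 0 and 3 called, with 18 pathway genes higher and 7 lower (median 0.15). With b2m alone all 8 were above 0 and 6 were called, with 37 pathway genes higher and 4 lower (median 0.38), and with acta1b alone all 8 were called, with 70 higher and 2 lower (median 0.80). With nono alone 2 members were above 0 and 1 was called lower, with 3 pathway genes higher and 24 lower (median -0.28). The values that follow use hprt1, nono and rpl13a. The log2 changes of the 8 lay between -0.33 and 0.18, with a median of -0.018, 4 above 0 and 4 below. Over the pathway genes the changes lay between -2.26 and 1.35, with a median of -0.11. The 95% interval of a change in limma, which took 1 common standard error for all genes, had a half-width of 0.31 on the log2 scale, or 1.24-fold. The standard errors from each member's own replicates, on 4 degrees of freedom, ran between 0.0434 and 0.243. In limma the common one took their place, so its smallest detectable change was the same for all members. The lowest value of the 8 was that of the kinase transcript rps6kb1b, which did not pass after adjustment, and the highest was that of the repressor transcript eif4ebp1.

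**Figure D1:**
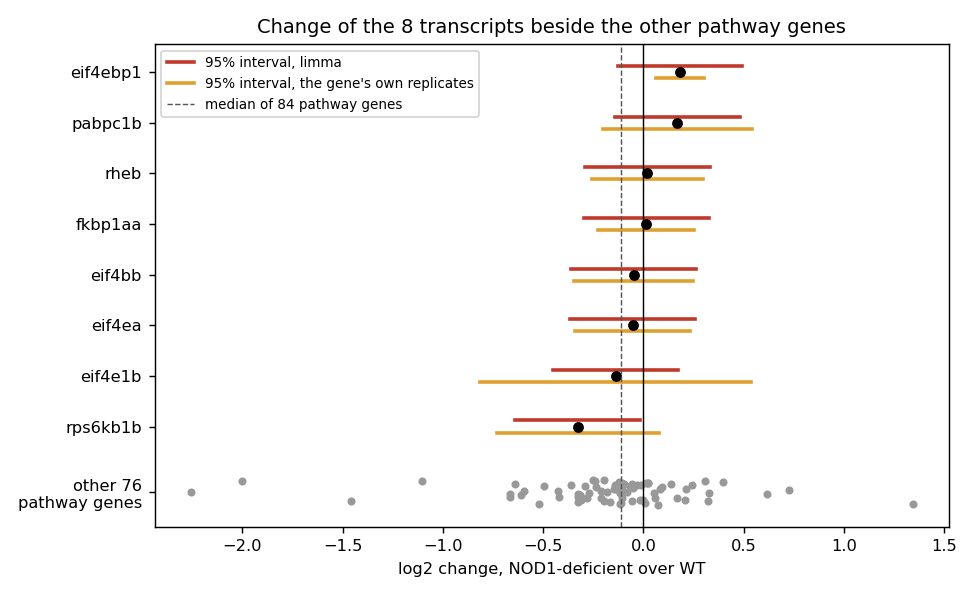
Log2 change of each of the 8 transcripts, NOD1-deficient over WT (x axis), with the 95% interval from limma and the one from the gene's own 3 and 3 replicates, above the changes of the other pathway genes as grey points. The 8 values lie between -0.33 and 0.18 while the pathway genes span -2.26 to 1.35, and the dashed line is the pathway median of -0.11.

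The transcripts of a Rheb-family GTPase and of the drug receptor of the branch had the smallest changes of the 8 under this scaling. Other members had the smallest under each of the other 9. The assay labelled rheb had a delta Ct of -0.11, -0.27 and -0.18 in the 3 NOD1-deficient pools, against -0.29, 0.0071 and -0.22 in the 3 WT pools. The WT values enclosed all 3 NOD1-deficient values, and the log2 change was 0.020 with a 95% interval of -0.29 to 0.33 (limma, adjusted p = 0.968). By its accession this assay matches the gene that RefSeq now names rhebl1, with rheb as an older name, and the symbol rheb now belongs to a separate gene. The protein is a small GTPase of the Rheb family in either case.

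The transcript fkbp1aa encodes a zebrafish FKBP12, the protein through which rapamycin binds mTOR. It was the most abundant signal of the 84 pathway genes in both genotypes. Its delta Ct was -1.49, -1.58 and -1.69 in NOD1-deficient larvae, against -1.58, -1.46 and -1.68 in WT larvae, and these ranges overlapped almost fully. The log2 change was 0.014 (95% interval -0.30 to 0.32, limma, adjusted p = 0.968). Within an array fkbp1aa stood above rheb by 2.64-fold in NOD1-deficient larvae and by 2.65-fold in WT larvae, a change of -0.0062 on the log2 scale with an interval of -0.23 to 0.22.

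The transcripts of the mTORC1 substrates gave both extremes of the set. For rps6kb1b, a zebrafish S6K1 gene whose kinase phosphorylates ribosomal protein S6 and eIF4B, delta Ct was 3.71, 4.17 and 4.06 in NOD1-deficient larvae, against 3.56, 3.67 and 3.72 in WT larvae. NOD1-deficient replicates 2 and 3 lay below the WT level, and NOD1-deficient replicate 1 lay inside the WT range. The log2 change was -0.33 (95% interval -0.64 to -0.016, limma, adjusted p = 0.149), or 1.25-fold higher in WT. It was the 1 member that passed without adjustment (limma, unadjusted p = 0.0395, adjusted p = 0.149). Computed from the replicates of this gene alone, the interval was -0.73 to 0.077 (two-sided exact permutation p = 0.2, where 0.1 is the smallest that 3 against 3 can give). With each array left out in turn the change ran between -0.46 without NOD1-deficient replicate 1 (limma, adjusted p = 0.0653) and -0.23 without NOD1-deficient replicate 2 (limma, adjusted p = 0.417). It was negative in 8 of 10 scalings, but only -0.045 with all 5 reference genes and -0.066 with the median Ct. With acta1b or b2m alone it was positive. It was called lower with nono alone (-0.49, limma, adjusted p = 0.0248) and higher with acta1b alone (0.58, limma, adjusted p = 0.0458). Those signs are not separate evidence, since a scaling moves all genes alike. Before scaling the log2 change was -0.030, and the scaling moved each log2 change by 0.30.

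The repressor transcript eif4ebp1, which encodes 4E-BP1, was the only member whose groups did not overlap, where 31.0% of the pathway genes did not overlap. Its delta Ct was 0.49, 0.42 and 0.57 in NOD1-deficient larvae, against 0.66, 0.69 and 0.68 in WT larvae. Each NOD1-deficient pool was higher in level than each WT pool, and the WT pools differed by less than any other member did in WT (SD 0.0107, n = 3). The log2 change was 0.18, a 1.13-fold difference. limma, which gave each gene the same standard error of 0.158, put its interval at -0.13 to 0.49 (adjusted p = 0.489). The replicates of eif4ebp1 alone gave a standard error of 0.0434 and an interval of 0.062 to 0.30 (two-sided exact permutation p = 0.1), and a linear model without moderation gave an adjusted p of 0.127. The sign was the same in all 10 scalings, with a change between 0.017 for nono alone and 1.09 for acta1b alone. A scaling moves all genes alike, so these signs are not separate evidence. Of the 10 scalings 4 called eif4ebp1, and those 4 called 26.2 to 85.7% of the pathway genes. With all 5 reference genes the change was 0.46 (limma, adjusted p = 0.00919).

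Read within 1 array the pair needs no reference gene. On the log2 scale eif4ebp1 exceeded rps6kb1b by 3.22, 3.74 and 3.49 in NOD1-deficient larvae, against 2.90, 2.99 and 3.05 in WT larvae. The groups did not overlap, which also held for 43.4% of all pairs of pathway genes. The mean ratio was 11.2-fold in NOD1-deficient larvae and 7.88-fold in WT larvae. The change was 0.51 ± 0.156 (SE) on the log2 scale, with a 95% interval of 0.075 to 0.94, or 1.42-fold (two-sided exact permutation p = 0.1). Leaving out 1 array at a time gave changes between 0.38 and 0.64. Of the 28 pairs that the 8 genes form this change is the largest by construction, since it joins their highest and lowest changes. The interval takes no account of that. After Benjamini-Hochberg adjustment over the 28, the lowest p of the exact permutation test was 0.467. No pair could have passed 0.05 there, since 0.1 is the smallest p before adjustment, so that test cannot decide on the pairs.

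**Figure D2:**
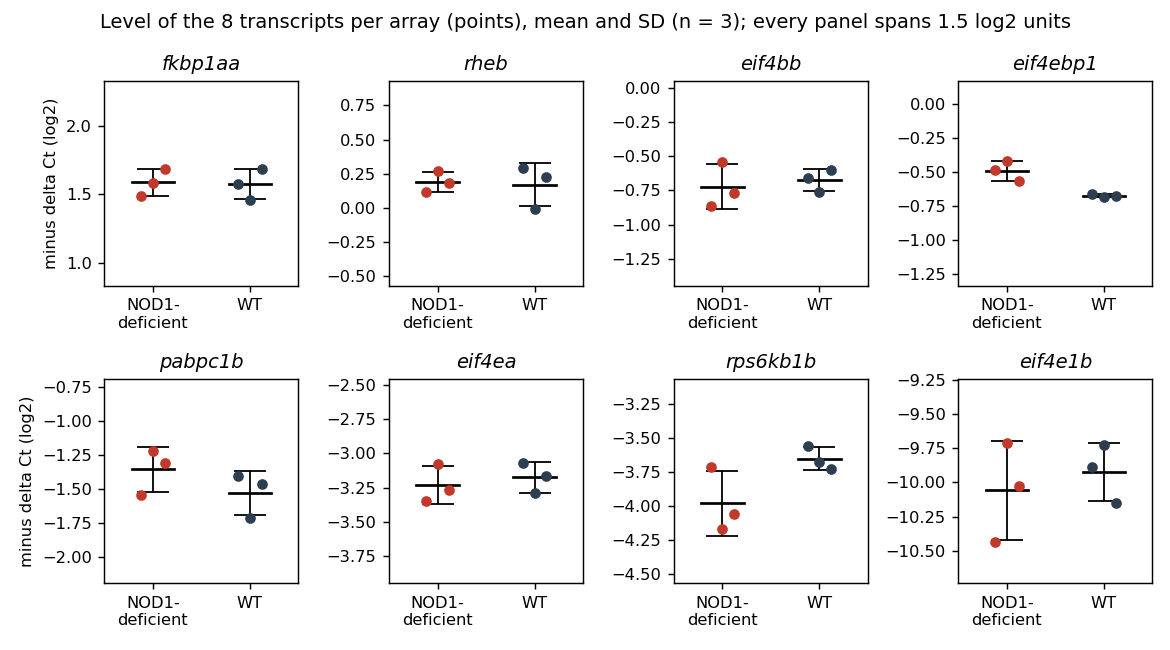
Level of each transcript as minus delta Ct (log2 scale, y axis) in the 3 NOD1-deficient and the 3 WT arrays, with the mean and SD as bars. The panels run in the WT order of the levels, and in the eif4ebp1 panel alone the points of the genotypes do not overlap.

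The array holds a pair of paralogs of the eIF4E cap-binding family. It holds no assay for eif4eb, so the share given below is of this pair only. The product of eif4ea is the canonical eIF4E that binds the cap in most cells. The product of eif4e1b, known in zebrafish from the early embryo, the gonads and muscle, binds the cap weakly. The paralogs differed far more from each other than either differed between the genotypes. Levels are given here as a percent of the geometric mean of the 3 reference genes. That of eif4ea was 9.83, 11.9 and 10.4 in NOD1-deficient larvae, against 11.9, 10.2 and 11.1 in WT larvae. The level of eif4e1b on the same scale was 0.0721, 0.119 and 0.0959 in NOD1-deficient larvae, against 0.106, 0.118 and 0.0880 in WT larvae. For both paralogs the ranges of the genotypes overlapped, and eif4e1b had the largest spread of the 8 transcripts in each genotype, with an SD of its delta Ct of 0.363 in NOD1-deficient larvae and 0.214 in WT larvae.

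The WT contrast between the paralogs was large beside its spread over the arrays. In WT larvae the Ct of eif4e1b was later than that of eif4ea by 6.82, 6.44 and 6.98 cycles, a mean of 6.75 ± 0.279 (SD, n = 3). If the product doubled at each cycle in both assays, this is a 107-fold excess of eif4ea (86.7-fold to 126-fold over the arrays). The direction was the same in 3 of 3 arrays, where the smallest p an exact sign-flip test allows is 0.25. The primer efficiencies of the 2 assays are unknown, and an error in them would act on the size of this contrast at each array alike.

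In NOD1-deficient larvae the same contrast was 7.09, 6.64 and 6.76 cycles, a mean of 6.83 ± 0.234 or 114-fold. The values of the genotypes interleave. The NOD1-deficient change of the contrast was 0.084 ± 0.210 (SE) on the log2 scale, with a 95% interval of -0.50 to 0.67 (two-sided exact permutation p = 0.8). The interval covers ratios from 0.707-fold to 1.59-fold, so a shift between the paralogs within that range was not excluded. The change was -0.070 without WT replicate 2 and -0.047 without NOD1-deficient replicate 1, so its sign rests on single arrays. As a share of the summed level of both assays, eif4e1b made up 0.728, 0.993 and 0.915% in NOD1-deficient larvae, against 0.880, 1.14 and 0.784% in WT larvae (two-sided exact permutation p = 0.7).

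**Figure D3:**
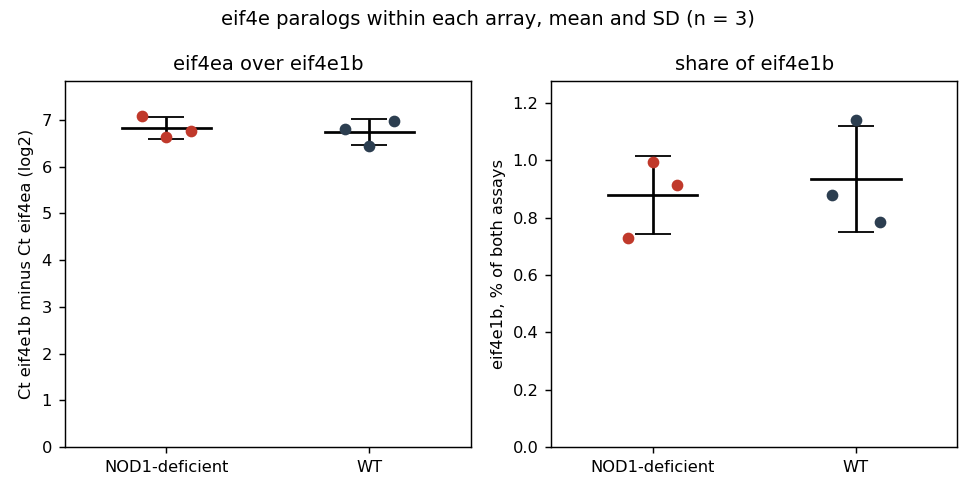
Left, the Ct of eif4e1b minus the Ct of eif4ea on each array (y axis, log2 units, where 0 would be equal levels); right, the share of eif4e1b in the summed level of both assays (y axis, percent). Points are arrays with mean and SD, and the NOD1-deficient means of 6.83 and 0.879% lie within 1 SD of the WT means of 6.75 and 0.935%.

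Tested singly, neither paralog passed the test. The log2 change of eif4ea was -0.054 (95% interval -0.36 to 0.26, limma, adjusted p = 0.860) and that of eif4e1b was -0.14 (-0.45 to 0.17, limma, adjusted p = 0.634). For eif4e1b the interval from its own replicates was wider, -0.81 to 0.54. The signs of both depend on the reference genes, since eif4ea was positive in 7 and eif4e1b in 6 of 10 scalings.

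As a marker of skeletal muscle the array holds acta1b, a muscle actin used as a reference gene by the manufacturer but not in the delta Ct here. Its level was 312 to 554% of the geometric mean of the 3 reference genes in NOD1-deficient larvae and 793 to 918% in WT larvae. Its raw Ct was 17.72, 17.09 and 17.19 in NOD1-deficient larvae, against 16.82, 16.63 and 16.70 in WT larvae. These groups did not overlap, and the log2 ratio of eif4e1b to acta1b on an array was 0.77 higher in NOD1-deficient than in WT larvae (95% interval 0.20 to 1.35, two-sided exact permutation p = 0.1). All 8 members were higher against acta1b, by 0.58 to 1.09, and eif4e1b was the second lowest of them. In RNA of whole larvae fewer cells of a type and less RNA per cell cannot be told apart, and the part of muscle content in the values of eif4e1b was not tested. Of 5 immune cell markers written down 4 are on the array, with a summed level of 7.88 to 9.11% in NOD1-deficient larvae and 12.1 to 12.4% in WT larvae. Most of that sum is b2m, a gene of nearly all cells and 1 of the 5 reference genes, at 6.82 to 7.84% in NOD1-deficient larvae and 10.1 to 10.8% in WT larvae. Of the other 3, which were tested, 1 was called higher and 2 were called lower, where 19.0% of all pathway genes were called. The part of these markers in the values of the 8 transcripts was not tested.

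The remaining translation factors did not pass the test either. The transcript eif4bb encodes eIF4B, a cofactor of the helicase that unwinds the 5′ end of mRNAs and a substrate of S6K1. Its delta Ct was 0.86, 0.54 and 0.77 in NOD1-deficient larvae, against 0.66, 0.76 and 0.60 in WT larvae, with overlapping ranges. The log2 change was -0.049 (95% interval -0.36 to 0.26, limma, adjusted p = 0.860) and positive in 7 of 10 scalings. Set against the kinase that modifies its protein, the within-array change of eif4bb over rps6kb1b was 0.28, with an interval of -0.38 to 0.93 (two-sided exact permutation p = 0.4).

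The transcript pabpc1b encodes a cytoplasmic poly(A)-binding protein. Its delta Ct was 1.54, 1.22 and 1.31 in NOD1-deficient larvae, against 1.41, 1.71 and 1.46 in WT larvae. NOD1-deficient replicate 1 lay among the WT values and the other NOD1-deficient pools were higher in level than each WT pool. The log2 change was 0.17 (95% interval -0.14 to 0.48, limma, adjusted p = 0.523). Without WT replicate 2 it was 0.079 and without NOD1-deficient replicate 1 it was 0.26. It was positive in all 10 scalings, between 0.0051 for nono alone and 1.08 for acta1b alone. These signs too are not separate evidence. Of the 10 scalings 4 called pabpc1b, with all 5 reference genes among these (limma, adjusted p = 0.0110). Those 4 called 26.2 to 85.7% of the pathway genes.

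Measured against eif4ea on the same array, the values of pabpc1b did not overlap between the genotypes. The log2 difference was 1.80, 1.85 and 1.96 in NOD1-deficient larvae, against 1.66, 1.58 and 1.70 in WT larvae, or 3.66-fold and 3.14-fold. The change was 0.22 (95% interval 0.062 to 0.39, two-sided exact permutation p = 0.1), between 0.18 and 0.26 with each array left out in turn. The repressor against its target gave a like value. The level of eif4ebp1 over eif4ea was 2.86, 2.65 and 2.70 in NOD1-deficient larvae, against 2.40, 2.60 and 2.49 in WT larvae, with a change of 0.24 and an interval of -0.0017 to 0.47 (two-sided exact permutation p = 0.1). Of the 28 pairs 3 had an interval that left out 0, and the intervals take no account of the number of pairs. Non-overlap was found in 6 of the 28 pairs (21.4%), while 43.4% of all pairs of pathway genes did not overlap. The share within the set was below that background, so non-overlap of single pairs says little about the set.

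**Figure D4:**
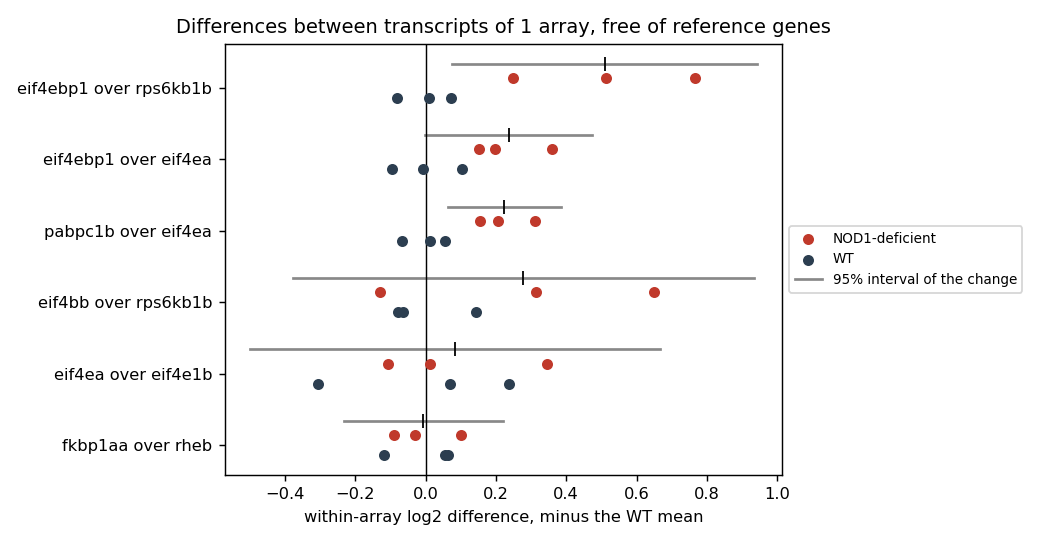
Within-array log2 difference between 6 pairs of transcripts, each minus its WT mean (x axis), for the NOD1-deficient arrays above the WT arrays, with the change and its 95% interval as a grey line. The top 3 pairs do not overlap between genotypes, with changes of 0.51, 0.24 and 0.22, and the eif4ea over eif4e1b points interleave.

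The order of the levels was nearly the same in the genotypes. In WT larvae it ran fkbp1aa, rheb, eif4bb, eif4ebp1, pabpc1b, eif4ea, rps6kb1b and eif4e1b. In NOD1-deficient larvae eif4ebp1 and eif4bb changed places, and the other positions were alike. The gap of eif4bb over eif4ebp1 was -0.23 ± 0.133 on the log2 scale in NOD1-deficient larvae and 0.0013 ± 0.0736 in WT larvae (SD, n = 3 each), and these were the only neighbours that did not differ beyond their spread in WT. All other neighbours kept their order in 3 of 3 arrays of each genotype. The set spanned a 3204-fold range in NOD1-deficient larvae and a 2885-fold range in WT larvae, if the assays amplified equally well. Among the 84 pathway genes eif4e1b ranked 82 in NOD1-deficient larvae and 81 in WT larvae, and rps6kb1b ranked 60 in both.

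By delta Ct, the highest and lowest pools of a genotype were often the same ones. In NOD1-deficient larvae, replicate 1 had the lowest level of its group for 6 of the 8 transcripts and replicate 2 the highest for 6. In WT larvae replicate 2 was lowest for 6 and replicate 1 highest for 5. The reference mean of an array is subtracted from all 8, so this pattern depends on the scaling. In raw Ct, NOD1-deficient replicate 1 had the lowest level for pabpc1b and eif4e1b and the highest for rheb, eif4ebp1 and rps6kb1b. WT replicate 2 had the lowest raw level for none of the 8. The count over all pathway genes was not made. The median SD of delta Ct over the 8 transcripts was 0.153 in NOD1-deficient larvae and 0.111 in WT larvae. Over all pathway genes it was 0.139 and 0.160, so the set lay above this in NOD1-deficient larvae and below it in WT larvae.

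Before scaling, most of the set gave an earlier signal in NOD1-deficient larvae. The raw Ct was lower in every NOD1-deficient array than in every WT array for 6 of the 8 transcripts, with rps6kb1b and eif4e1b as the exceptions, while this held for 40.5% of the pathway genes. For eif4ebp1 the raw Ct was 19.85, 19.98 and 20.10 in NOD1-deficient larvae, against 20.48, 20.30 and 20.57 in WT larvae. For rps6kb1b it was 23.07, 23.72 and 23.59 in NOD1-deficient larvae, against 23.38, 23.29 and 23.62 in WT larvae. The 5 reference genes did not move together. The raw log2 change was 0.46 for nono, whose groups did not overlap, and 0.27 for rpl13a and 0.16 for hprt1, whose groups overlapped, against -0.20 for b2m, with overlap, and -0.61 for acta1b, without. Differences in cDNA input and in the expression of these genes cannot be told apart on these arrays. The difference between members does not depend on it, so eif4ebp1 was the highest and rps6kb1b the lowest change of the set under each of the 10 scalings, as it has to be when 1 value per array is subtracted from all genes.

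**Figure D5:**
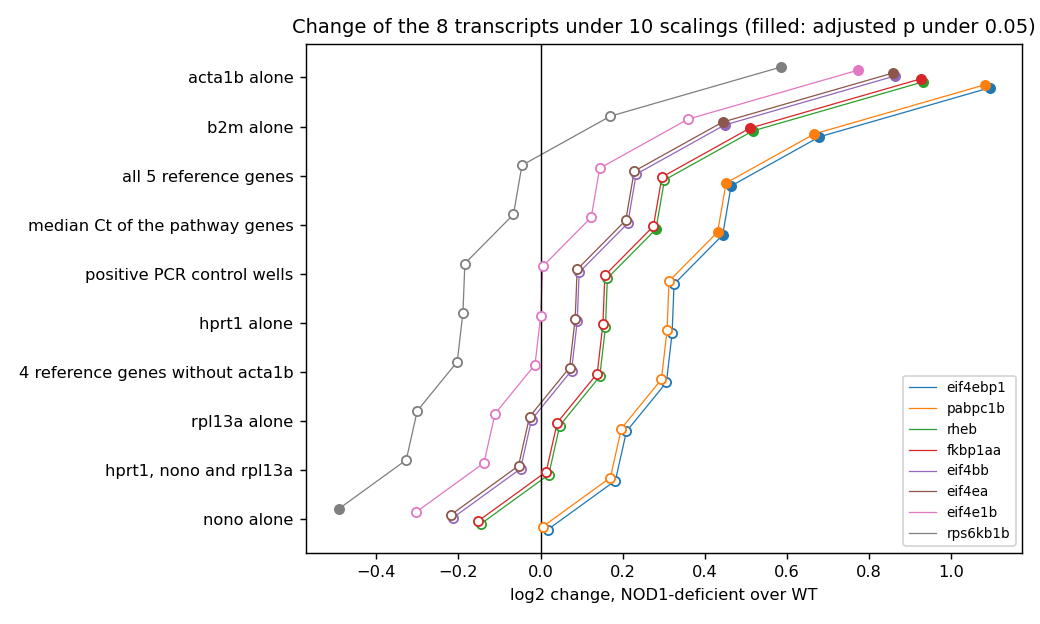
Log2 change of the 8 transcripts, NOD1-deficient over WT (x axis), under 10 choices of scaling (y axis), where filled points have an adjusted p under 0.05 in limma. All 8 lines move in parallel, eif4ebp1 and pabpc1b stay above 0 in all 10 scalings, and all 8 are filled with acta1b alone.

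Other genes around mTORC1 were read from 2 lists. Of 27 symbols written for the upstream side, 15 are on the array, 2 of them members of the set. None was higher, 2 were lower and 13 were not called, with changes between -0.27 and 0.17, and the median was -0.12. The called share, 2 of 15, lies below the 19.0% of all pathway genes, and the median is close to their -0.11. The regulatory PI3K subunit transcript pik3r2 had a delta Ct of 4.48, 4.41 and 4.58 in NOD1-deficient larvae, against 2.93, 3.25 and 2.91 in WT larvae, a log2 change of -1.46 (limma, adjusted p = 8.63e-17). The insulin receptor substrate transcript irs1 had a delta Ct of 6.61, 6.50 and 6.12 in NOD1-deficient larvae, against 5.79, 6.17 and 5.49 in WT larvae, a log2 change of -0.59 (limma, adjusted p = 0.00147). The pools overlapped for irs1 and not for pik3r2, and with acta1b alone as the reference the sign of irs1 turned positive. The standard error from the replicates of irs1 alone was 0.248, above the common 0.158 on which its limma p-value rests. For pik3r2 it was 0.123.

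The kinase itself and its inhibitory complex, named here after their values were seen, were among those not called. The delta Ct of mtor was 3.48, 3.42 and 3.37 in NOD1-deficient larvae, against 3.24, 3.50 and 3.20 in WT larvae, a log2 change of -0.11 (limma, adjusted p = 0.713). The transcripts of the TSC complex, which turns Rheb off, gave -0.099 for tsc1b (limma, adjusted p = 0.732) and -0.20 for tsc2 (limma, adjusted p = 0.443).

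On the translation side 8 of 18 symbols are on the array, 6 of them members. Of these 1 was higher, none was lower and 7 were not called, with a median of 0.0058, where 19.0% of all pathway genes were called and their median was -0.11. The gene that rose was eif2ak2, the double-stranded RNA-activated kinase PKR, which halts initiation by phosphorylating eIF2 and does not act through the cap. Its delta Ct was 6.77, 6.87 and 6.70 in NOD1-deficient larvae, against 7.90, 8.19 and 8.29 in WT larvae, a log2 change of 1.35 (limma, adjusted p = 1.26e-14).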

How the data were processed

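Ct values of PI3K-Akt pathway PCR arrays (SYBR Green, 40 cycles) were measured in whole larvae. The authors deposited raw Ct values, with 3 columns per genotype and 1 listed sample each. The columns were read as biological replicates from the series description. The exact permutation p-values compare the pools for the gene or pair itself. The limma p-values rest on a spread between pools that was pooled over the genes of the same 6 arrays. They can therefore fall far below the 0.1 that an exact test of 3 against 3 allows. The normalized values that the authors deposited are linear ratios, 1 value per genotype on the scale of 2 raised to minus delta Ct, from the manufacturer's software, and their fold changes were not used. The reference genes are not given in the sources used here. With hprt1, nono and rpl13a and Ct over 35 set to 35, computed values matched the deposited ratios within 1.91e-06 on the log2 scale, and the next subset within 0.288.

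Minus delta Ct of the 84 pathway genes was tested with limma 3.58.1 in R 4.3.3 (lmFit and eBayes, two-sided, Benjamini-Hochberg over 84, threshold 0.05). The code was run first on simulated independent genes with the same SD. That run does not check false calls where SDs differ or the genes of an array shift together. The prior degrees of freedom were infinite, so each gene had the same SD of 0.194. Intervals of single genes and pairs from their own replicates used 4 degrees of freedom. Exact permutation tests used the splits of 6 arrays into 3 and 3. Ct differences were read as log2, which assumes doubling at each cycle. The number of arrays limits the precision, and the labels name no run or plate lot. The 6 genomic DNA control wells gave no Ct. The 18 reverse transcription control wells gave none, and with no reading from them, differences between the arrays at that step were not tested.

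The members and lists were chosen with earlier results of these data known. All members are named, with list genes that passed the adjusted threshold. The alternatives were other reference genes, the median Ct, the positive PCR control wells, other limma settings, a replicate block, Ct limits of 30 and 40, and leaving out each replicate. Leaving out replicates for the pairs eif4ebp1 over rps6kb1b and pabpc1b over eif4ea was chosen after seeing the data. All 8 assays matched RefSeq genes by accession. Python 3.11.15 with scipy 1.17.1 was used for the rest.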

Additional observations from a re-analysis of the deposited data

How the results depend on the processing

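The count of members past an adjusted p of 0.05, 0 in the main analysis, depended on the reference genes. It was 2 with all 5 reference genes (eif4ebp1 and pabpc1b), 8 when acta1b was the only reference, 6 for b2m, 1 for nono (rps6kb1b, lower, -0.49) and 3 with the median Ct, where 26.2, 85.7, 48.8, 32.1 and 29.8% of the pathway genes passed. It was 0 in each of the other alternatives. The median change, -0.018 in the main analysis, was 0.26 with all 5 reference genes, 0.11 without acta1b, 0.89 with acta1b, 0.48 with b2m, 0.12 with hprt1, -0.18 with nono, 0.24 with the median Ct and 0.13 with the positive PCR control wells.

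Of 160 values of single genes, 31 changed sign, 24 by scaling and 7 by leaving out an array. The 160 include values from the other limma settings, the model without moderation, the replicate block and the Ct limits. Those alternatives left the log2 change of each member as in the main analysis, so their values could not change sign. The share of 31 in 160 therefore understates how often scaling or leaving out an array turned a sign. All 5 reference genes gave 0.23 for eif4ea, 0.14 for eif4e1b and 0.23 for eif4bb, and 4 without acta1b gave 0.070 for eif4ea and 0.075 for eif4bb. acta1b gave 0.58 for rps6kb1b, 0.86 for eif4ea, 0.77 for eif4e1b and 0.86 for eif4bb, and b2m gave 0.17, 0.44, 0.36 and 0.45 for these. hprt1 gave 0.084 for eif4ea, 0.00031 for eif4e1b and 0.089 for eif4bb, the median Ct 0.21, 0.12 and 0.21, and the control wells 0.089, 0.0050 and 0.094. nono gave -0.14 for rheb and -0.15 for fkbp1aa. Each scaling moves all genes by 1 value, which sets these signs by construction.

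With each array left out in turn, the change was -0.13 to 0.0049 for eif4ea, -0.31 to 0.052 for eif4e1b, -0.14 to 0.021 for eif4bb, -0.068 to 0.080 for rheb and -0.042 to 0.068 for fkbp1aa. The median of the 8 was -0.075 to 0.054, the paralog contrast 6.63 to 6.90 in WT and its change -0.070 to 0.20. Correlations of the deviations were 0.12, 0.085 and -0.27 for same-numbered arrays, within the -0.39 to 0.36 of differently numbered ones. They showed no pairing of the pools by number and cannot exclude one. The replicate block left 0 members called. It cannot move the paralog change of 0.084, since each replicate number occurs once in each genotype.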
